A study of Mus musculus with 13 samples.

Results

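Meaf6, Paf1 and Atxn7l1 are mRNAs whose proteins act on chromatin or travel with RNA polymerase II, and here their recovery with the protein P23 was followed before and after LPS. They were taken by Ensembl gene ID and are 3 of the 52 RNAs in the deposited table. The study had placed all 52 in that table because they were more abundant in the P23 IP than in the control IP of untreated cells, and by the fit used here all passed as higher (100%). That contrast therefore describes how the RNAs were chosen, and it is given below without a test.

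MEAF6 is a small subunit shared by the NuA4/TIP60, MOZ/MORF and HBO1 complexes, which acetylate histones and so open chromatin for transcription. PAF1 is a core subunit of the PAF1 complex, which rides on elongating RNA polymerase II and promotes histone modifications over transcribed genes, among them ubiquitylation of histone H2B. ATXN7L1 is a relative of ataxin-7, a subunit of the SAGA coactivator complex that acetylates and deubiquitylates histones. In macrophages LPS is sensed by Toll-like receptor signaling and sets off a broad wave of transcription, in which such complexes take part.

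All libraries came from RAW 264.7, a mouse macrophage line with no genetic change in any group, so the results hold for 1 line. Cells were untreated (0 h) or treated with 10 ng/ml LPS for 2 h, then UV-crosslinked, and P23 (an HSP90 co-chaperone, also called PTGES3) or luciferase (LUC, the control, which the cells lack) was immunoprecipitated from cytoplasmic extract. The 0 h groups hold 3 P23 IPs, 3 LUC IPs and 1 input, and the 2 h groups hold 3 P23 IPs, 2 LUC IPs and 1 input. The submitters described the IPs as independent biological replicates, a further LUC library of 2 h was set aside by the authors as an apparent outlier, and the labels and the paper name different products as the P23 antibody.

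Values are normalized counts, meaning reads per gene divided by the size factor of the library. Summed over the 52 RNAs, each IP held between 3751 and 11866 reads, the 0 h input 24335 and the 2 h input 25437. None of the 10 macrophage markers, 6 T cell markers, 4 B cell markers and 7 fibroblast and epithelial markers that were looked for was among the 52 RNAs, so the identity of the cells could not be checked. A change in an input or an IP cannot tell fewer transcript-bearing cells from less RNA per cell. The size factors put the median RNA of the table higher in P23 than in LUC, and on a scale that sets the 52 RNAs equal between libraries this offset is lost by construction.

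The 3′UTRs of the members are shown first, because the study's motif search in its P23-bound mRNAs returned a U/G-rich motif in 3′UTRs. That search used unbound mRNAs as background, and the shares below are a different measure, set against mouse 3′UTRs in general. Of the hexamers (6-nt words read at every position) in the 3931-nt Meaf6 3′UTR, 265 or 6.75% held U and G only. The share was 3.91% in the 133-nt 3′UTR of Paf1 and 2.37% in the 216-nt 3′UTR of Atxn7l1, which is only 5 hexamers each. Among 19245 mouse 3′UTRs of RefSeq (GRCm38.p6), the median share was 2.9%, and 5.41% of them had at least the share of Meaf6, 27.9% that of Paf1 and 63.5% that of Atxn7l1. Meaf6 thus lay in the upper tail of all 3′UTRs, Paf1 in the upper part and Atxn7l1 below the middle. The 30-nt window richest in U/G-only hexamers is given for Meaf6 and Atxn7l1 from 5′ to 3′, with the bases covered by such hexamers in capitals. These windows lie on the + strand of GRCm38.p6 within the last exon of the RefSeq transcript, at chr4:125112670-125112699 for Meaf6 and chr12:33368242-33368271 for Atxn7l1. The second Meaf6 window, at chr4:125109729-125109758, is the richest upstream of an earlier annotated transcript end.
Meaf6, distal: UGUGUGUGUGUGUGUGUGUGUGUGUGUGUG
Meaf6, proximal: UUGUUUUGUUUUGUGUUGUaUUGUUUUUUU
Atxn7l1: ugaggccuacuucauuaaagaGUUGUGUUG

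The distal Meaf6 window held U/G-only hexamers at 25 of 25 positions and is part of an uninterrupted UG repeat of 48 nt. A window this rich occurred in 6.67% of the RefSeq 3′UTRs and in 7 of the 44 RefSeq 3′UTRs of the table. The proximal Meaf6 window held 19, broken by a single A. The best windows of Paf1 and Atxn7l1 held 5 and 4, below the median of 7 over RefSeq and of 14 over the table. A longer 3′UTR holds more windows to pick the best from. Median lengths were 788 nt over RefSeq and 1385 nt over the table, and windows were not compared at equal length for any member. In GENCODE M21, 1 of the 3 protein-coding Meaf6 transcripts reaches past the distal window and 2 end before it, and gene-level counts do not tell which was present. Other RefSeq transcripts of Atxn7l1 end in a 3′UTR of 1221 nt with 22 U/G-only hexamers (1.81%) and up to 4 in a window, or in one of 654 nt with 38 (5.86%) and up to 18. The 654-nt 3′UTR starts at 33375755, past the end of the gene in GENCODE M21 at 33373185. A U/G-rich stretch is a description of the sequence and does not mark a binding site.

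**Figure D1:**
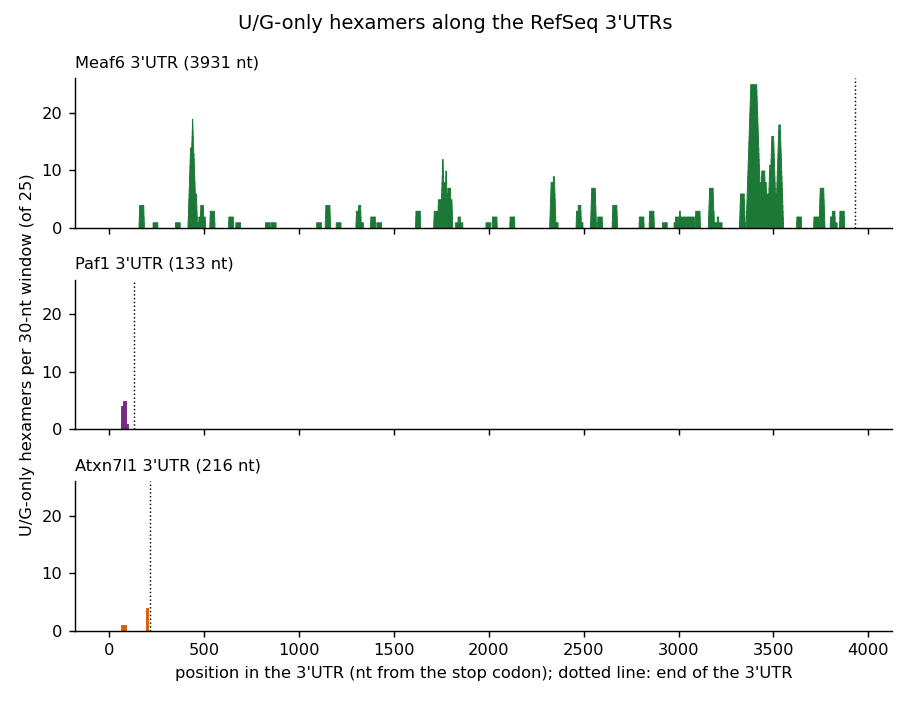
The number of U/G-only hexamers in each 30-nt window (y axis, of 25 possible) is plotted against the window's position in the 3′UTR, in nt from the stop codon (x axis), for Meaf6, Paf1 and Atxn7l1. The Meaf6 3′UTR of 3931 nt reached 25 in a distal stretch and 19 near its start, whereas the short 3′UTRs of Paf1 and Atxn7l1 reached 5 and 4.

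Meaf6 (ENSMUSG00000028863, chromosome 4, 125085134 to 125113238, + strand, GRCm38) was higher with P23 than with LUC at both times, although not beyond the multiple-testing threshold at 2 h. At 0 h its normalized counts were 114.8, 65.4 and 74.6 in the P23 IPs and 69.5, 37.5 and 42.6 in the LUC IPs. The groups overlapped, since LUC replicate 1 lay above P23 replicate 2, and the log2 difference was 0.82 (SE 0.24). Without P23 replicate 1, the highest library, it was 0.57. After LPS the counts were 52.6, 77.6 and 72.9 with P23 and 39.8 and 37.9 with LUC. Every P23 library then lay above both LUC libraries, which was so for 33 of the 52 RNAs (63.5%). The log2 difference of 0.81 (SE 0.31) was the 5th highest of the table, with an edgeR adjusted p = 0.074. It passed when only the 2 h libraries entered the edgeR fit (adjusted p = 0.016) and without P23 2 h replicate 1 (log2 0.96, adjusted p = 0.036), and over 12 alternatives its adjusted p ranged from 0.016 to 0.62. On the scales that made the 52 RNAs equal between libraries, the difference shrank to 0.34 (TMM) and 0.40 (equal medians) at 2 h and to 0.16 and 0.26 at 0 h.

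Paf1 (ENSMUSG00000003437, chromosome 7, 28392951 to 28399388, + strand) had the steadiest libraries of the 3 mRNAs in the P23 IP at 0 h. Its normalized counts there were 135.1, 128.8 and 137.5, against 99.9, 82.8 and 85.2 with LUC. The groups did not overlap, as for 42 of the 52 RNAs (80.8%) in this contrast by which the table was chosen, and the log2 difference was 0.60 (SE 0.14). At 2 h the counts were 111.5, 130.6 and 125.5 with P23 and 95.8 and 91.2 with LUC. The P23 libraries again all lay higher. The log2 difference was 0.39 (SE 0.16), next to a table median of 0.40, and its edgeR adjusted p was 0.075. With TMM and equal medians it was -0.07 and -0.02, and the 0 h difference was -0.06 and 0.05, so the direction depended on the scale at both times.

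Atxn7l1 (ENSMUSG00000020564, chromosome 12, 33147693 to 33373185, + strand) had P23 and LUC groups that did not overlap at 0 h but overlapped at 2 h. The change in the difference between P23 and LUC from 0 h to 2 h did not pass when tested, as given below. The 0 h counts were 132.4, 130.8 and 149.3 with P23 and 99.9, 82.8 and 83.1 with LUC. These groups did not overlap, as for 42 of the 52 RNAs (80.8%) in this contrast by which the table was chosen. The log2 difference was 0.66 (SE 0.17), equal to the median of the table. At 2 h the counts were 39.8, 51.7 and 61.3 with P23 and 56.1 and 30.9 with LUC. All 5 libraries were lower than any at 0 h. Within the P23 IP, the groups of the times were likewise apart and lower at 2 h for 21 of the 52 RNAs (40.4%). Within the LUC IP this was so for 15 (28.8%). At 2 h the P23 libraries at 39.8 and 51.7 lay below the LUC library at 56.1. The log2 difference was 0.27 (SE 0.26, edgeR adjusted p = 0.42). Its direction hung on the pair of LUC libraries, since it was -0.13 without LUC 2 h replicate 2 and 0.73 without LUC 2 h replicate 1, with the lone LUC library taken to vary like the other groups. With TMM and equal medians the 2 h difference was -0.19 and -0.13, and that of 0 h was 0.00 and 0.11.

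**Figure D2:**
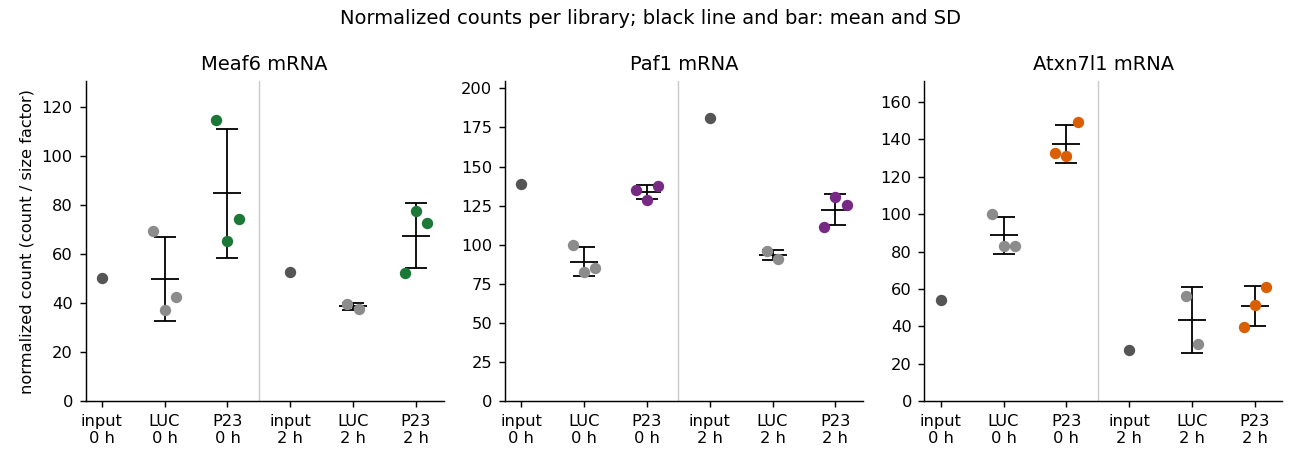
Normalized counts (y axis, count divided by size factor) are shown for every library of the inputs, LUC IPs and P23 IPs at 0 h and 2 h of LPS (x axis), with the mean and SD as black lines where a group has more than 1 library. Atxn7l1 stood between 130.8 and 149.3 in untreated P23 IPs and between 39.8 and 61.3 after LPS, while Paf1 kept to 111.5 to 137.5 in all P23 IPs.

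In the 2 h contrast, which did not serve to choose the table, 4 of 52 RNAs passed as higher with P23 (7.69%) and 1 as lower (1.92%), and none of the 3 members was among them. At an unadjusted p under 0.05, 23 of the 52 RNAs were higher, among them Meaf6 and Paf1 but not Atxn7l1. The change in P23 enrichment from 0 h to 2 h was tested as the interaction of IP and time. It was 0.00 for Meaf6 (SE 0.44, edgeR adjusted p = 1), -0.20 for Paf1 (SE 0.21, adjusted p = 0.72) and -0.38 for Atxn7l1 (SE 0.31, adjusted p = 0.56). The median over the table was -0.26, and only E2f5 passed, as lower (1.92%). The Atxn7l1 value rested on the LUC libraries of 2 h, at 0.07 without replicate 1 and -0.79 without replicate 2. Since the RNAs were picked for a high ratio at 0 h, a fall towards 2 h is favoured by the choice itself. The SE of Meaf6 was wide next to its 0 h difference of 0.82, at 0.44 here and 0.35 with limma on the variance-stabilized log2 values. The 0.44 is imprecise, since it was derived from a log2 change of 0.00. A p that misses the threshold therefore does not show equal enrichment at both times.

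**Figure D3:**
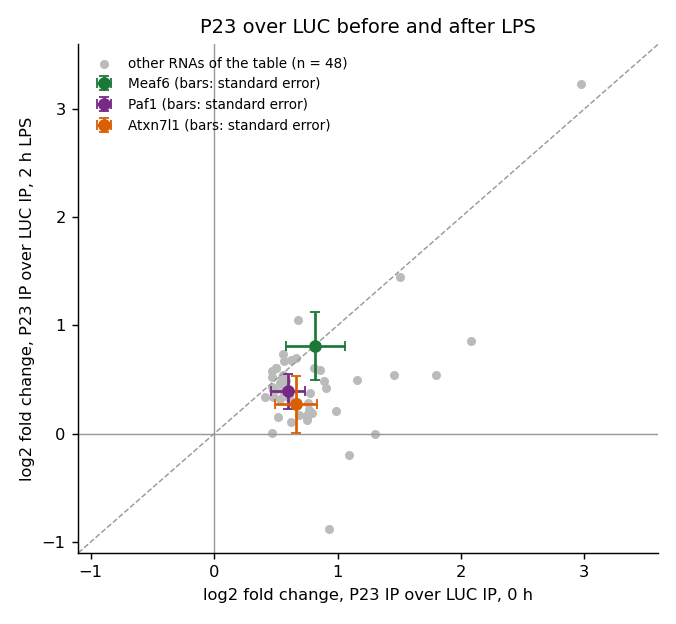
The log2 fold change of P23 over LUC at 2 h of LPS (y axis) is plotted against that at 0 h (x axis) for Meaf6, Paf1, Atxn7l1 (with standard errors) and the 48 other RNAs with a count in a 2 h IP. Meaf6 lay on the diagonal of equal values at 0.82 and 0.81, and Paf1 and Atxn7l1 lay below it at 0.39 and 0.27 on the y axis.

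Atxn7l1 mRNA fell with LPS in both IPs and was lower in the 2 h input, whereas no change passed for Meaf6 or Paf1 in either IP. In the P23 IP the mean of Atxn7l1 went from 137.5 ± 10.2 (SD, n = 3) to 50.9 ± 10.7 (n = 3), a log2 change of -1.43 (SE 0.19, edgeR adjusted p = 7.6e-06). It was among 21 of 52 RNAs that fell there (40.4%) and the 6th lowest. In the LUC IP it fell from 88.6 ± 9.8 (n = 3) to 43.5 ± 17.8 (n = 2), a log2 change of -1.04 (SE 0.24, edgeR adjusted p = 0.0037). It was the 4th lowest among 6 of 52 RNAs that fell there (11.5%), while 8 rose (15.4%). Without LUC 2 h replicate 2, the lowest library, this call was lost (log2 -0.64, adjusted p = 0.13), and it passed under the other 11 of 12 alternatives (lowest adjusted p = 0.00053). The P23 call passed under all 13 alternatives, with log2 changes from -1.58 to -1.13. These comparisons share the 0 h libraries that chose the table.

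Atxn7l1 was also lower in the 2 h input. It had 332 reads in the 0 h input and 155 in the 2 h input, or normalized counts of 54.4 and 27.4. The log2 ratio was -0.99 (exact 95% Clopper-Pearson interval -1.27 to -0.71, counting error only), the 3rd lowest of 51 RNAs. The ratio of 0.50 lay at the edge of a 2-fold fall, past which 2 of 51 RNAs went (3.92%). The log2 ratio was -0.91 with equal medians and -1.16 with the sums over the table, so the side of that edge depended on the scale. With 1 input per time there was no replicate check, and whether the fall in the P23 IP exceeded that in the input was not tested. The annotated antisense gene Atxn7l1os2 covers 193 bases of Atxn7l1 exons (1.92%). Counting ignored strand, so reads there could not be assigned to either gene.

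No change of Meaf6 with LPS passed. Its input counts were 50.3 and 52.7, with a log2 ratio of 0.07 (95% counting interval -0.17 to 0.30). Its mean went from 85.0 ± 26.3 to 67.7 ± 13.3 in the P23 IP (log2 -0.29, SE 0.23, edgeR adjusted p = 0.28) and from 49.9 ± 17.2 to 38.8 ± 1.4 in the LUC IP (log2 -0.29, SE 0.32, adjusted p = 0.55). The libraries of both times overlapped in each IP.

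Paf1 was higher in the 2 h input than in the 0 h input, and no change passed in its IPs. The input counts were 138.7 and 181.0, a log2 ratio of 0.38 (95% counting interval 0.25 to 0.52) and the 7th highest of the table, where the median was 0.01. Scaled by the sums over the table in place of size factors, the ratio was 0.21. The IP values were -0.12 with P23 (SE 0.13, edgeR adjusted p = 0.44), from a mean of 133.8 ± 4.5 to 122.5 ± 9.9, and 0.08 with LUC (SE 0.16, adjusted p = 0.72), from 89.3 ± 9.2 to 93.5 ± 3.3. The sign in the P23 IP turned with the scale, to 0.18 with TMM and 0.08 with equal medians.

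**Figure D4:**
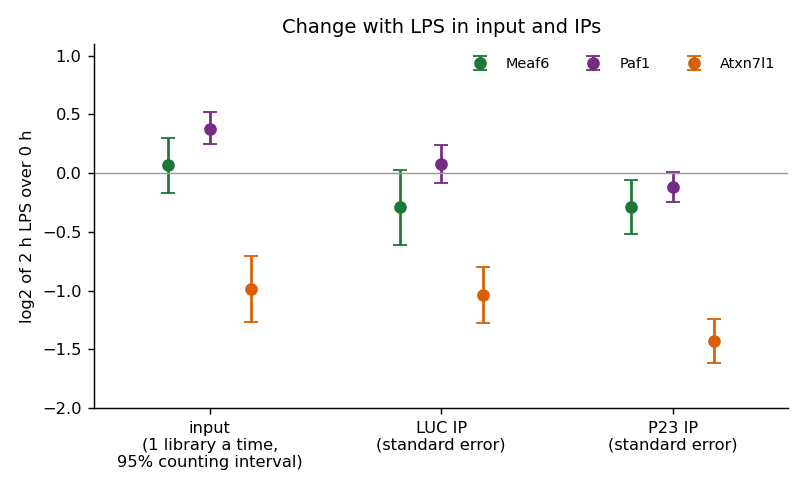
The log2 ratio of 2 h LPS over 0 h (y axis) is shown for Meaf6, Paf1 and Atxn7l1 in the input, the LUC IP and the P23 IP (x axis). Bars are 95% counting intervals for the single inputs and standard errors for the IPs. Atxn7l1 lay at -0.99, -1.04 and -1.43, and both other mRNAs lay between -0.29 and 0.38.

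Relative to the input the 3 mRNAs differed. In the P23 IP at 0 h, the ratio of IP to input on the size-factor scale was 2.53 ± 0.19 (SD, n = 3 IPs against 1 input) for Atxn7l1, 1.69 ± 0.52 for Meaf6 and 0.96 ± 0.03 for Paf1, next to a table median of 2.57. Atxn7l1 was thus at the middle of the table and Paf1 at rank 50 of 52. In the LUC IP at 0 h the order was the same, with 1.63 ± 0.18, 0.99 ± 0.34 and 0.64 ± 0.07. At 2 h the P23 ratios were 1.86 ± 0.39 for Atxn7l1, 1.28 ± 0.25 for Meaf6 and 0.68 ± 0.05 for Paf1, and the LUC ratios (n = 2) were 1.58 ± 0.65, 0.74 ± 0.03 and 0.52 ± 0.02. With the sums over the table as library sizes, the 0 h ratios of Atxn7l1, Meaf6 and Paf1 became 0.83, 0.55 and 0.32 in the P23 IP and 0.91, 0.54 and 0.36 in the LUC IP. At 2 h they became 0.71, 0.49 and 0.26 with P23 and 0.96, 0.45 and 0.31 with LUC. The order of the 3 mRNAs held on this scale, but for Atxn7l1 and Paf1 the LUC ratio then lay above the P23 ratio at both times. The sums include the P23 enrichment for which the RNAs were chosen, so this scale removes that offset by construction.

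Levels of different genes were compared per kb of exon. In the P23 IP at 0 h, normalized counts per kb were 38.9 ± 1.3 for Paf1, 16.3 ± 5.04 for Meaf6 and 13.7 ± 1.02 for Atxn7l1 (SD, n = 3), and Meaf6 and Atxn7l1 did not differ beyond their spread. At 2 h the levels were 35.6 ± 2.87, 13 ± 2.55 and 5.07 ± 1.07, in the same order. In the LUC IP they were 26 ± 2.69, 9.57 ± 3.3 and 8.82 ± 0.971 at 0 h and 27.2 ± 0.963, 7.45 ± 0.26 and 4.32 ± 1.77 at 2 h. Paf1 also led in the inputs, with 40.3 per kb at 0 h and 52.6 at 2 h, followed by Meaf6 at 9.66 and 10.1 and Atxn7l1 at 5.42 and 2.73. Atxn7l1 has 10049 bases of exon in all but a longest transcript of 3548 bases, so its place depended on the length used. Per kb of the longest transcript, Atxn7l1 stood above Meaf6 in the P23 IP at 0 h (38.8 and 18.7), in the LUC IP at 0 h (25 and 11) and 2 h (12.2 and 8.53) and in the 0 h input (15.3 and 11.1). Meaf6 remained higher in the P23 IP at 2 h (14.9 and 14.4) and in the 2 h input (11.6 and 7.73).

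Across the 11 IP libraries, Meaf6 and Paf1 ran more alike than either did with Atxn7l1. The Pearson r of the variance-stabilized log2 values was 0.86 for Meaf6 with Paf1, 0.54 for Meaf6 with Atxn7l1 and 0.39 for Paf1 with Atxn7l1. These values describe libraries that share size factors, antibody and time, and carry no test. The RNAs most like Meaf6 were Isoc2a (r = 0.95), Erf (0.94), encoding a transcriptional repressor of the ETS family, and Nudt3 (0.94), encoding a Nudix hydrolase, against a median r of 0.71 with the other RNAs. For Paf1 they were the kinesin mRNAs Kif15 (0.93) and Kif1b (0.92) and again Erf (0.91), against a median of 0.70. For Atxn7l1 they included Lfng (0.94), encoding a glycosyltransferase that modifies Notch, and Zbtb7b (0.91), encoding a zinc finger transcription factor, against a median of 0.55. Lfng and Zbtb7b were, like Atxn7l1, among the 6 RNAs that fell in the LUC IP. By Spearman correlation, Lfng and Zbtb7b stayed among the nearest of Atxn7l1. Only 1 of 3 neighbours stayed for Meaf6 (Isoc2a) and for Paf1 (Erf). For Paf1, Kif1b then ranked 6th and Kif15 20th.

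No other listed subunit of the same complexes was found in the table, so whole complexes could not be followed. Of the 7 symbols listed for the PAF1 complex, 6 were in GENCODE M21 and could be looked up. Of 29 genes listed for the complexes that contain MEAF6, 7 for the PAF1 complex and 23 for SAGA and the ataxin-7 family, only the respective member was among the 52 RNAs. None of 22 genes for other elongation factors was, and of 23 histone lysine methyltransferase genes only Kmt5a, which methylates histone H4. Kmt5a was recovered at a mean normalized count of 684.7 ± 65.8 with P23 and 459.9 ± 72.0 with LUC at 0 h, and at 585.2 ± 138.5 and 417.6 ± 2.4 at 2 h. Its log2 difference was 0.58 (SE 0.19) at 0 h and 0.49 at 2 h (SE 0.22, edgeR adjusted p = 0.1). No time change of Kmt5a passed, at -0.22 in the P23 IP (edgeR adjusted p = 0.32) and -0.13 in the LUC IP (adjusted p = 0.7), and its input counts were 307.0 and 301.0.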

How the data were processed

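Per the submitters' processing notes and methods, the authors trimmed reads with Trimmomatic 0.33, checked them with FastQC 0.11.2, mapped them with TopHat2 2.0.14 to GRCm38 and assigned them to genes with HTSeq 0.6.1, ignoring strand. The deposited raw counts were used for all tests. The deposited variance-stabilized log2 values gave 1 size factor per library (0.461 to 1.02 in the IPs, 6.1 and 5.65 in the inputs). Columns of the authors' own comparisons (log2 fold changes, p-values, FDR) were not used, and 0 columns of samples were unmapped.

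The 11 IP libraries were fitted in R 4.3.3 by the quasi-likelihood test of edgeR 4.0.16 (4 group means, preset size factors, Benjamini-Hochberg over all 52 RNAs, adjusted p of 0.05 or less), after tests on simulated data. Other scales, tools, filters and left-out libraries were tried as alternatives. The SE of an edgeR value was its absolute log2 change divided by the square root of its F statistic. Each input pair got a 95% Clopper-Pearson interval. All 52 IDs matched GENCODE M21, and 3′UTR sequences came from RefSeq GRCm38.p6, using the first listed transcript. Named genes were the members, the 3 RNAs of highest Pearson r with each, and listed genes present in the table, except that 1 of these RNAs and 1 sequence window are not reported here. Members and lists were chosen with earlier results of these data known. The table holds 52 RNAs only, so sums over it are not library sizes.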

Additional observations from a re-analysis of the deposited data

Results flagged for a closer look

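Among the 52 RNAs, 1 showed a change in P23 enrichment with LPS by the test of the interaction itself. It was E2f5, the mRNA of an E2F transcription factor, with a log2 change of -1.81 from 0 h to 2 h (SE 0.27, edgeR adjusted p = 0.00022). E2f5 was also among the 8 RNAs that rose in the LUC IP, which has 2 libraries at 2 h. The choice of the RNAs by their 0 h ratio favours a fall here too.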

How the results depend on the processing

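TMM and equal medians over the 52 RNAs, which assume no general enrichment, moved the median log2 difference from 0.66 to 0.01 and 0.12 at 0 h and from 0.40 to -0.06 and -0.01 at 2 h. RNAs higher with P23 at 0 h then numbered 2 and 3 in place of 52, and at 2 h 2 and 2 in place of 4, against 8 with DESeq2 and 13 when only the compared groups were fitted. At 0 h, TMM gave 0.16 for Meaf6, -0.06 for Paf1 and 0.00 for Atxn7l1, and equal medians 0.05 for Paf1 and 0.11 for Atxn7l1. At 2 h they gave -0.07 and -0.02 for Paf1 and -0.19 and -0.13 for Atxn7l1, and fitting only the compared groups gave Meaf6 0.81 (adjusted p = 0.016). In the P23 IP over time, 14 and 10 RNAs rose in place of 6, with Meaf6 at 0.02 with TMM and Paf1 at 0.18 and 0.08. The change in enrichment of Meaf6, 0.00 as reported, was 0.18, 0.13, 0.00 with DESeq2 and 0.06 with the replicate block. Beyond the scales, whose construction removes the offset, the cause of these shifts was not tested.

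Leaving out 1 library at a time, RNAs higher with P23 numbered 40 to 52 at 0 h and 2 to 13 at 2 h, with 0 to 1 lower at 2 h. At 2 h the count was 13 without P23 replicate 1, 2 without P23 replicate 2 or 3 or LUC replicate 1, and no RNA was lower without that LUC library. At 0 h Meaf6 was 0.57 to 1.05, Paf1 0.55 to 0.67 and Atxn7l1 0.59 to 0.73. At 2 h they were 0.70 to 0.96, 0.35 to 0.46 and -0.13 to 0.73. In the P23 IP over time 3 to 5 RNAs rose (3 without P23 0 h replicate 2 or 3) and 14 to 19 fell, with Meaf6 at -0.45 to -0.04, Paf1 at -0.17 to -0.06 and Atxn7l1 at -1.58 to -1.29. In the LUC IP 5 to 9 rose (5 without LUC 2 h replicate 2) and 1 to 11 fell (11 without LUC 0 h replicate 2, 3 and 1 without LUC 2 h replicates 1 and 2), with Meaf6 at -0.44 to -0.06, Paf1 at 0.04 to 0.15 and Atxn7l1 at -1.50 to -0.64. The change in enrichment was -0.24 to 0.24 for Meaf6, -0.27 to -0.14 for Paf1 and -0.79 to 0.07 for Atxn7l1.

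Whether replicate numbers pair the IPs was not settled. Deviations of same-numbered libraries from their group means correlated at 0.29, 0.45 and -0.41 at 0 h and at -0.02 and -0.10 at 2 h. The 2 LUC libraries of 2 h deviate from their mean in mirror image, so the 2 h values cannot decide. With the replicate number as a block, Meaf6 at 2 h was 0.86 (adjusted p = 0.077), and 3 RNAs were higher and 1 lower. It changed no call of a member. The 2 LUC libraries of 2 h and the single inputs limit every value that rests on them.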
